A study of Homo sapiens with 9 samples.

Results

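The interferon-stimulated genes were followed in SKNO-1 cells after knockdown of ASXL2. They were chosen as a list of 45 gene symbols that interferon is known to induce, each represented by its RefSeq transcript with the highest total count. All 45 were among the 25680 symbols in the counts, and 41 of them passed the filter on low counts that left 14199 genes for testing. SKNO-1 is a human line from acute myeloid leukaemia with the AML1-ETO fusion, also named RUNX1-RUNX1T1. Its messenger RNA was sequenced in 9 samples, 3 in each of 3 groups: the control EV, an abbreviation that the labels leave unexplained and for which the study describes a control shRNA, and SH2 and SH3, each with a different shRNA against ASXL2. All groups share the cell line and its fusion, and how long the shRNAs had acted and whether cells were cloned are not given in the sources used here. The labels number the samples of every group 1, 13 and 25 without saying what the numbers stand for, so each number holds 1 sample of each group. A comparison of groups asks whether the shRNAs came with an interferon response, and a comparison of numbers asks how far these genes differed between sets of samples that share a number.

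Type I interferons bind the receptor pair IFNAR1 and IFNAR2, whose kinases activate transcription factors in the cytoplasm. STAT2 and IRF9 are subunits of the complex ISGF3, which binds the interferon-stimulated response element in the promoters of the induced genes. Double-stranded RNA can start the same response through the sensors DDX58 (RIG-I) and IFIH1 (MDA5), for which reason induction of these genes is a known side effect of some shRNAs and viral vectors. The induced proteins block viral entry, translation and replication, and several of them are sensors and transcription factors of the pathway itself.

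With 1 transcript per gene, the samples held 27714431 to 35406063 counts, and a count of 3 in a sample corresponded to 0.0847 to 0.108 CPM, the count scaled to the effective library size. These limits cover counting error only. ASXL2, the target of both shRNAs, was at 67.9, 67.9 and 74.7 CPM in EV, 30.4, 36.2 and 36.2 in SH2 and 26.9, 29.1 and 41.1 in SH3 in the samples numbered 1, 13 and 25, which left 48.8% ± 4.26 (SD, n = 3) of the EV mean in SH2 and 45.8% ± 8.13 in SH3. All 6 knockdown samples were below all 3 EV samples (two-sided exact permutation test, p = 0.0119, the smallest that 84 splits allow). The granule enzyme MPO, at 6368 to 10240 CPM, marked the samples as myeloid, and the progenitor antigen CD34 had at most 10 counts in a sample. Of 10 markers of other cell types, 9 had at most 5 counts. The exception was the adhesion molecule PECAM1, at 1.75 to 3.92 CPM. Same-numbered samples of different groups deviated together from their group means, with correlations of 0.398 to 0.731 over all genes tested, so each comparison of groups was also fitted with the number as a block.

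The cells expressed most of the list at a low to moderate level in all 3 groups. Compared between genes per length, as CPM per kilobase averaged over the 9 samples, the small membrane proteins IFITM1 (163) and IFITM2 (57.8), which restrict viral entry, and the RNA editing enzyme ADAR (51.4) were highest. The phospholipid scramblase PLSCR1 (25), the nucleotide kinase CMPK2 (24.7) and the ubiquitin ligase TRIM25 (18.3) came next on this scale. The lengths were those of the Ensembl canonical transcript in GENCODE, which can differ from the RefSeq transcript counted. Standard readouts of interferon lay over much of the range, with 17.2 for the mitochondrial protein IFI6, 9.38 for viperin (RSAD2), 2.95 for the ubiquitin-like modifier ISG15, 0.556 for IFIT1, 0.232 for the antiviral GTPase MX1 and 0.0844 for the oligoadenylate synthetase OAS3. The 4 members that did not pass the filter were OAS1 and OAS2, relatives of OAS3, with at most 6 and 4 counts in any sample, and IFI27 and IFI44L with at most 2 each. In the samples numbered 1, 13 and 25, OAS1 was at 0.165, 0 and 0 CPM in EV, 0.101, 0 and 0 in SH2 and 0.102, 0.0309 and 0 in SH3. IFI27 was at 0.055, 0 and 0 CPM in EV, 0.0335, 0 and 0.0693 in SH2 and 0.034, 0.0309 and 0.0364 in SH3. OAS1 reached 3 counts in the samples numbered 1 alone, and IFI27 in none.

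The response element is shown first, because it is the sequence that ISGF3 binds. Promoters of 300 bases, from 250 bases before to 50 bases after the start of a gene, were taken from RefSeq (GRCh38.p14) for 36 of the 45 members. They were searched on both strands for GAAANNGAAA, the core of the element, which reads TTTCNNTTTC on the other strand. The core was present in 21 of the 36 (58.3%), in 996 of 27305 promoters of all genes (3.65%) and in 2.83% of the promoters of genes tested here. Windows of 60 bases are printed 5′ to 3′ on the strand of the gene, with 1 match in capitals, for 4 members that were higher in the samples numbered 1 (IFIT1, IFIT3, IFIH1 and PARP14), for 2 that did not pass that test (ISG15 and HERC5) and for 1 that was lower (EIF2AK2).
IFIT1: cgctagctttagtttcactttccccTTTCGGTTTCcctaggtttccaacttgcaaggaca
IFIT3: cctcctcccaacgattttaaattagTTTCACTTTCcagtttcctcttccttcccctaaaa
IFIH1: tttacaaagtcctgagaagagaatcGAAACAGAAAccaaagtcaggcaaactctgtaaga
PARP14: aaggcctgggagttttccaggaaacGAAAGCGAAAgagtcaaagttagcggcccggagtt
ISG15: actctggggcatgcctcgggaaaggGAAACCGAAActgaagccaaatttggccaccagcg
HERC5: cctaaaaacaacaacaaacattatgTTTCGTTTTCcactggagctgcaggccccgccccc
EIF2AK2: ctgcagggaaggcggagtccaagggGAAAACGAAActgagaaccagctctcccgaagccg
In GRCh38.p14 these windows lie at chr10:89392495-89392554 (plus strand, IFIT1), chr10:89327850-89327909 (plus, IFIT3), chr2:162318671-162318730 (minus, IFIH1), chr3:122680785-122680844 (plus, PARP14), chr1:1013365-1013424 (plus, ISG15), chr4:88457020-88457079 (plus, HERC5) and chr2:37156952-37157011 (minus, EIF2AK2). The match was present in 15 of 23 promoters (65.2%) of members higher in the samples numbered 1 and in 4 of 10 (40%) of the other members tested. A match is a description of the letters and no evidence of binding. The searched window of STAT2, IRF1, IRF9, DDX58, ADAR, RSAD2 and CMPK2 held none, nor did those of OAS1, HERC6, TRIM25, IFI35, PARP9, SAMD9L, XAF1 and SP100. Of these, STAT2, IRF9, DDX58, RSAD2, TRIM25, SAMD9L, XAF1 and SP100 were higher in the samples numbered 1.

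Neither shRNA came with a change of the interferon-stimulated genes that passed the edgeR test. In the edgeR fit with 1 coefficient per group, 0 of 41 members were called in SH2 against EV, SH3 against EV, both averaged against EV or SH3 against SH2, and the share called over all genes tested was 0% in each of the 4. ASXL2 itself did not pass in this fit (adjusted p = 0.808 in SH2, 0.612 in SH3 and 0.177 for both averaged). The fit without the block therefore cannot show that the members were unchanged. With the block ASXL2 passed in edgeR (adjusted p = 0.00469, 0.00407 and 0.00098 in the same order). Members with an unadjusted p below 0.05 numbered 3, 0, 3 and 1 of 41, against 5.37%, 5.09%, 6.63% and 2.06% of all genes tested. With the number as a block, 0 of 41 members were again called in each, against 0.282%, 0.416%, 1.1% and 0.106% of all genes tested, and 9, 10, 9 and 13 members had an unadjusted p below 0.05, against 18.7%, 18.7%, 20.4% and 11.9% of all genes. DESeq2 without the block called 0 members in the 4 comparisons, against 0.176%, 0.183%, 0.394% and 0.0775% of all genes. DESeq2 with the block called PARP14 alone, as lower in SH2 (-0.53 on the log2 scale, adjusted p = 0.00531) and in both shRNAs averaged (-0.36, adjusted p = 0.0362), while it called 2.63%, 3.34%, 4.38% and 1.07% of all genes in the 4 comparisons. These are bulk samples, in which fewer cells with a transcript and less of it per cell cannot be told apart.

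The fold changes lay on both sides of 0. In SH2 14 members had a positive and 27 a negative log2 fold change, with a median of -0.10 against 0.01 over all genes tested. In SH3 30 were positive and 11 negative, with a median of 0.09 against 0.01. Without the SH3 sample numbered 1, and still without the block, these became 7 positive and 34 negative with a median of -0.13. Without the EV sample numbered 1 the SH2 split turned to 24 positive and 17 negative (median 0.05) and the SH3 split to 33 and 8 (median 0.29). Each omission leaves number 1 in some groups and not in others, so it mixes the number with the groups. With the 3 samples numbered 1 left out, which keeps the numbers balanced, SH2 was 13 positive and 28 negative (median -0.08). SH3 was 22 positive and 19 negative (median 0.02). In these fits 0 members were called in each comparison, as were 0 of all 14083 genes tested.

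The member with the smallest p in SH2 without the block was ISG15, a small protein that is joined to others like ubiquitin and is a standard readout of interferon. It was at 1.71, 1.4 and 1.37 CPM in EV, 2.54, 2.6 and 2.43 in SH2 and 1.29, 1.88 and 1.68 in SH3 in the samples numbered 1, 13 and 25, from 38 to 83 counts. All 3 SH2 samples were above the EV and SH3 samples, and the SH3 sample numbered 1 was the lowest of the 9. Without the block the log2 fold change was 0.76 ± 0.22 (SE, adjusted p = 0.808) in SH2, 0.12 ± 0.22 (SE, adjusted p = 0.982) in SH3 and -0.64 ± 0.22 (SE, adjusted p = 0.998) for SH3 against SH2. With the block the adjusted p of ISG15 was 0.115 in SH2 and 0.266 for SH3 against SH2. USP18, the protease that removes ISG15 from its targets, went the other way in SH2, at 0.908, 0.748 and 1.03 CPM in EV, 0.569, 0.47 and 0.451 in SH2 and 0.851, 0.803 and 0.437 in SH3, with 12 to 33 counts. Its difference without the block was -0.85 ± 0.32 (SE, adjusted p = 0.872) in SH2 and -0.36 ± 0.31 (SE, adjusted p = 0.976) in SH3, and all SH2 samples were below all EV samples. With the block the adjusted p of USP18 in SH2 was 0.185. HERC5, the ligase that attaches ISG15, was at 22.6, 22.2 and 21.9 CPM in EV, 23.7, 26.6 and 18.8 in SH2 and 20.2, 26.8 and 21.7 in SH3, and its groups overlapped (0.05 ± 0.15 SE, adjusted p = 0.998 in SH2).

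PARP14 and PARP9, members of the ADP-ribosyltransferase family, had among the smallest p with the block. PARP14 was at 39.4, 26.5 and 20.4 CPM in EV, 26.7, 17.3 and 15.5 in SH2 and 41.1, 18.2 and 18.8 in SH3. Within each number SH2 was below EV, but the EV sample numbered 25 lay below the SH2 sample numbered 1, so the groups overlapped. The log2 fold change in SH2 was -0.54 ± 0.36 (SE, adjusted p = 0.966) without the block and -0.53 ± 0.11 (SE, adjusted p = 0.0795) with it, and over all alternatives the adjusted p ran from 0.00531 to 1. In SH3 PARP14 was -0.14 ± 0.36 (SE, adjusted p = 0.985), with its sample numbered 1 above that of EV. PARP9 was at 16.9, 14.6 and 13.2 CPM in EV, 12.2, 10.6 and 12.8 in SH2 and 13.3, 11.8 and 12.6 in SH3. Every knockdown sample was below the EV sample of its number, and the SH3 sample numbered 1 was level with the lowest EV sample. Without the block the differences were -0.33 ± 0.14 (SE, adjusted p = 0.897) in SH2, -0.25 ± 0.14 (SE, adjusted p = 0.971) in SH3 and -0.29 ± 0.12 (SE, adjusted p = 0.742) for both averaged. With the block the adjusted p of PARP9 were 0.154, 0.245 and 0.121. Both averaged against EV without the block, the other members with the smallest p were USP18 at -0.60 ± 0.26 (SE, adjusted p = 0.744), ISG15 at 0.44 ± 0.19 (SE, adjusted p = 0.744), EIF2AK2 at -0.25 ± 0.15 (SE, adjusted p = 0.858) and OAS3 at 0.67 ± 0.52 (SE, adjusted p = 0.902). With the block their adjusted p were 0.214, 0.215, 0.143 and 0.24 in the same order.

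EIF2AK2 (PKR), the kinase that stops translation on binding double-stranded RNA, had the smallest p in SH3. It was at 46.5, 46.3 and 51.6 CPM in EV, 36.3, 47.3 and 45.2 in SH2 and 29.8, 36.6 and 48.2 in SH3. The fold change was -0.33 ± 0.17 (SE, adjusted p = 0.971) without and -0.36 ± 0.11 (SE, adjusted p = 0.129) with the block, and -0.17 ± 0.17 (SE, adjusted p = 0.986) in SH2. The SH3 sample numbered 25 overlapped EV. The IFIT proteins, which bind foreign RNA ends, had positive values in SH3 for all 4 genes without the block and for 3 with it, of which 0 passed the test. IFIT2 was at 4.21, 2.18 and 1.83 CPM in EV, 5.99, 2.73 and 2.08 in SH2 and 14.8, 2.04 and 2.37 in SH3, so that the SH3 sample numbered 1 alone stood above the range of the others. Its fold change in SH3 was 1.22 ± 0.75 (SE, adjusted p = 0.971) without the block, 0.89 (adjusted p = 0.187) with it, and -0.33 without that sample. IFIT3 was at 8.25, 4.25 and 3.6 CPM in EV, 9.38, 7.43 and 4.89 in SH2 and 14.5, 6.11 and 4.48 in SH3. Its fold change in SH3 was 0.63 ± 0.47 (SE, adjusted p = 0.971) without the block, 0.58 (adjusted p = 0.131) with it, and -0.03 without the same sample. Both omissions were fitted without the block and kept number 1 in EV but not in SH3. Against EV of the same number, SH3 at 13 and 25 was 0.52 and 0.31 for IFIT3 and -0.09 and 0.36 for IFIT2. IFIT5 was the IFIT gene with the smallest p in SH2, at -0.37 ± 0.28 (SE, adjusted p = 0.979) without the block and -0.40 (adjusted p = 0.177) with it. The synthetase genes OAS3, with 5 to 31 counts, and OASL, with 16 to 53, were 0.84 ± 0.58 (SE, adjusted p = 0.971) and 0.60 ± 0.39 (SE, adjusted p = 0.971) in SH3 without the block. With it their adjusted p were 0.21 and 0.275.

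Compared with the EV sample of the same number, 19, 15 and 11 of 41 members were higher in the SH2 samples numbered 1, 13 and 25, and 30, 14 and 22 in the SH3 samples. Median differences in log2 CPM were -0.08, -0.10 and -0.07 for SH2 and 0.21, -0.07 and 0.01 for SH3, against medians of all genes between 0.00 and 0.03 in size. Members over 1 on the log2 scale above EV were OASL, IFIT1, IFIT2, BST2 and ISG20 in the SH3 sample numbered 1 and OAS3 in the SH3 sample numbered 13. ISG20 in both shRNAs numbered 13 and USP18 in both numbered 25 were more than 1 below. IRF1, OAS3 and IFIT3 were above EV in all 6 pairs, and DDX58, RSAD2 and PARP9 were below in all 6. For DDX58 these differences were -0.32, -0.02 and -0.02 for SH2 and -0.16, -0.25 and -0.29 for SH3, and for IRF1 0.02, 0.33 and 0.04 for SH2 and 0.07, 0.36 and 0.22 for SH3. Each EV sample enters a pair with either shRNA, so the 6 pairs are not independent.

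**Figure D1:**
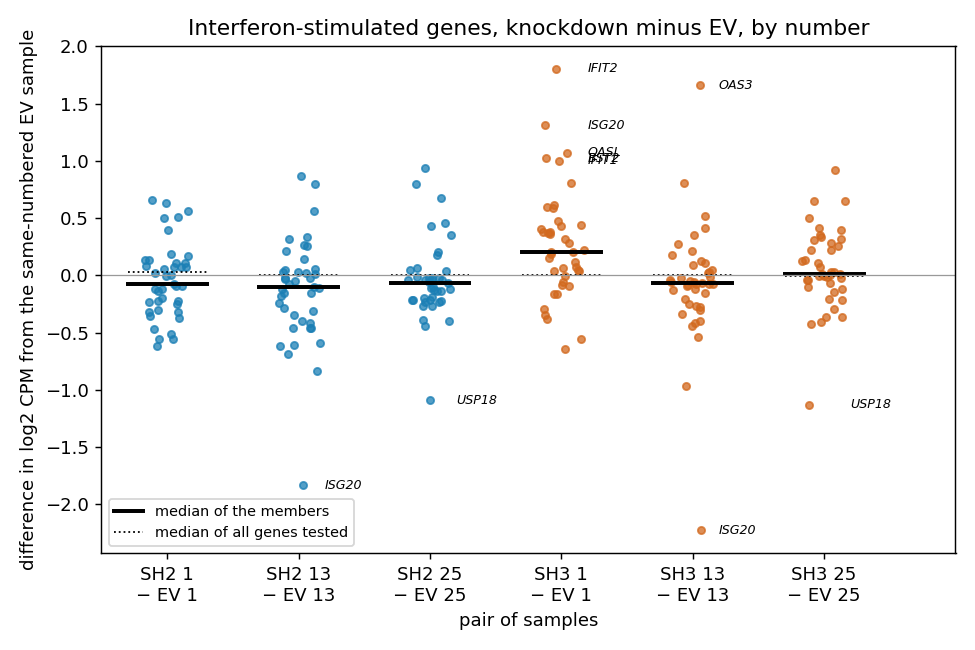
Each point is 1 of the 41 tested interferon-stimulated genes, plotted as the log2 CPM of a knockdown sample minus that of the EV sample with the same number. Solid bars are medians of the members and dotted bars medians of all genes tested: the members' median is 0.21 in the SH3 pair numbered 1 and between -0.10 and 0.01 in the other 5 pairs.

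Between the shRNAs, 33 members had a positive and 8 a negative log2 fold change for SH3 against SH2, with a median of 0.19, and 0 of 41 were called. Without the SH3 sample numbered 1 the split was 16 positive and 25 negative, with a median of -0.06. This fit had no block and kept number 1 in SH2 but not in SH3. With all samples numbered 1 left out, the split was 29 positive and 12 negative, with a median of 0.09. The smallest p with the block belonged to IFITM3, the endosomal restriction factor for influenza virus, at 10.2, 7.89 and 6.1 CPM in EV, 8.27, 5.95 and 5.93 in SH2 and 13.1, 7.69 and 7.72 in SH3. It was 0.50 ± 0.27 (SE, adjusted p = 0.998) without the block and 0.48 ± 0.12 (SE, adjusted p = 0.185) with it. SP100, USP18 and IFIT5 were the next members by p without the block, after ISG15 and IFITM3, at 0.19 ± 0.12 (SE, adjusted p = 0.998), 0.49 ± 0.32 (SE, adjusted p = 0.998) and 0.41 ± 0.28 (SE, adjusted p = 0.998). IFITM1, IFITM2 and IFITM3 are near-identical in part, so reads may be split among them with error.

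Most interferon-stimulated genes were higher in the samples numbered 1 than in those numbered 13 and 25, in all 3 groups. With the group as a term, edgeR called 32 of 41 members between number 1 and numbers 13 and 25, of which 30 were higher and 2 lower in number 1. Over all genes tested, 24.1% were called higher and 22.2% lower, so the numbers differed in much besides these genes. The median log2 fold change of the members was 0.61 against 0.01 over all genes tested. In 25 of 41 members all 3 samples numbered 1 were above the other 6, an order found in 14.4% of all genes tested, and in 0 members were they all below, against 12.1% of all genes. The number took a median of 74.3% of a member's variance over the 9 samples and the group 12.1%, against 56.8% and 17.9% over all genes. The number took more than the group in 38 of 41 members (92.7%) and in 75.1% of all genes. DESeq2 called 27 members, against 40.7% of all genes. Without the SH3 sample numbered 1, 25 of 41 were called, against 4813 of 14291 genes tested, and 8 of the calls ended: BST2, MX1, ISG20, RSAD2, EIF2AK2, OASL, XAF1 and SP100. Over the 9 omissions of 1 sample, the calls of OASL and XAF1 ended in 7, that of MX2 in 5, those of BST2 and SP100 in 4, that of EIF2AK2 in 3 and that of RSAD2 in 2. Those of OAS3, MX1 and ISG20 ended in 1. PECAM1 was also higher in number 1 (0.88 ± 0.13 SE, adjusted p = 0.000976). Of 7 tested genes listed as markers of the leukaemia line, 2 were called higher, KIT (0.36) and PTPRC (0.75), against 24.1% of all genes. CD33 (-0.12), CEBPA (-0.12), MPO (0.13), RUNX1T1 (0.08) and SPI1 (0.01) did not pass. The part of PECAM1, KIT and PTPRC in the result was not tested.

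**Figure D2:**
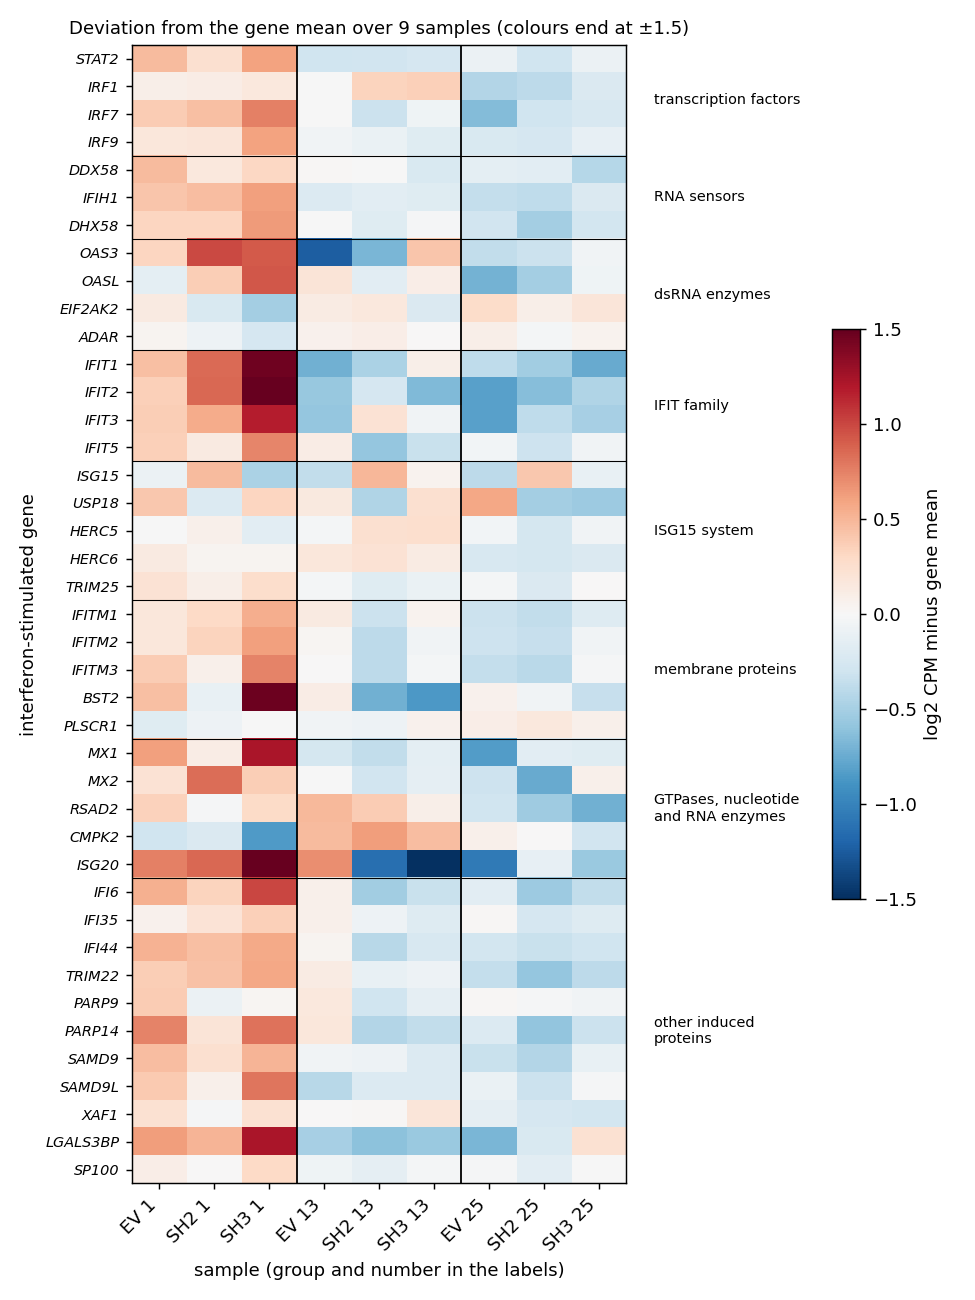
The log2 CPM of each of the 41 tested members in each of the 9 samples is shown as its deviation from the mean of that gene, with genes grouped by role and samples ordered by number. Red, above the gene mean, fills most of the 3 columns numbered 1, with the strongest in the SH3 sample, and the row of CMPK2 shows the opposite.

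Among the transcription factors, 3 of 4 rose in number 1. The share of all genes tested called higher in number 1, 24.1%, stands beside this and each later count by role. Values are given from here in the order EV, SH2 and SH3 for each number. STAT2, the subunit of ISGF3 that carries its activation domain (chr12:56735381-56753987, minus strand, GRCh37), was at 76.2, 64.7 and 82.9 CPM in the samples numbered 1, 44.4, 44.9 and 45.8 in those numbered 13 and 51.3, 44.3 and 51.3 in those numbered 25. All samples numbered 1 were above the other 6, at 0.66 ± 0.06 (SE, adjusted p = 0.000159). IRF9, the DNA-binding subunit of the same complex, was at 13.1, 13.1 and 17.6 CPM in the samples numbered 1, 11.2, 10.8 and 10.2 in those numbered 13 and 9.84, 9.7 and 10.6 in those numbered 25. It rose by 0.48 ± 0.10 (SE, adjusted p = 0.00375). IRF7, the factor that amplifies the transcription of interferon genes, was at 6.96, 7.33 and 9.06 CPM in the samples numbered 1, 5.31, 4.26 and 5.09 in those numbered 13 and 3.37, 4.33 and 4.51 in those numbered 25. It rose by 0.80 ± 0.12 (SE, adjusted p = 0.000981), again without overlap between number 1 and the others. IRF1, which interferon gamma also induces, did not pass the test (0.18 ± 0.07 SE, adjusted p = 0.0681).

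All 3 sensors of viral RNA rose in number 1. IFIH1 (chr2:163123584-163175194, minus strand), the sensor of long double-stranded RNA whose promoter window is printed above, had the smallest p of all members, at 27.2, 28.2 and 31.3 CPM in the samples numbered 1, 17.6, 18.2 and 17.9 in those numbered 13 and 15.9, 15.7 and 17.5 in those numbered 25. The means were 28.9 ± 2.15 CPM (SD, n = 3) in number 1, 17.9 ± 0.327 in number 13 and 16.4 ± 0.982 in number 25, and the log2 fold change was 0.75 ± 0.07 (SE, adjusted p = 0.000103). DDX58 (RIG-I), which senses RNA with 5′ triphosphate ends, was at 12.6, 10.1 and 11.3 CPM in the samples numbered 1, 9.15, 9.03 and 7.69 in those numbered 13 and 8.2, 8.11 and 6.7 in those numbered 25. Its samples numbered 1 were all above the rest, by 0.48 ± 0.10 (SE, adjusted p = 0.00322). DHX58 (LGP2), a regulator of both sensors, was at 5.94, 5.93 and 7.42 CPM in the samples numbered 1, 4.73, 4.17 and 4.66 in those numbered 13 and 3.87, 3.29 and 3.9 in those numbered 25. It rose by 0.65 ± 0.11 (SE, adjusted p = 0.00146).

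Among the enzymes that act on or through double-stranded RNA, OAS3 and OASL rose by 1.18 ± 0.29 (SE, adjusted p = 0.0074) and 0.64 ± 0.23 (SE, adjusted p = 0.042), both from few counts. Without the SH3 sample numbered 1, OASL was 0.43 (adjusted p = 0.243). OAS3 was at 0.633, 1.04 and 0.987 CPM in the samples numbered 1, 0.17, 0.282 and 0.679 in those numbered 13 and 0.367, 0.381 and 0.473 in those numbered 25. Its EV, SH2 and SH3 values numbered 1 did not all exceed the rest, since SH3 numbered 13 was above EV numbered 1. OASL was at 0.825, 1.21 and 1.8 CPM in the samples numbered 1, 1.05, 0.815 and 0.988 in those numbered 13 and 0.533, 0.624 and 0.874 in those numbered 25. EIF2AK2 fell by 0.30 on the log2 scale (adjusted p = 0.0223), and was -0.21 (adjusted p = 0.0891) without that sample. In number order it was at 46.5, 36.3 and 29.8 CPM in the samples numbered 1, 46.3, 47.3 and 36.6 in those numbered 13 and 51.6, 45.2 and 48.2 in those numbered 25, and only the knockdown samples numbered 1 were below their own group's others. ADAR, at 284 to 363 CPM, did not pass the test (-0.14 ± 0.07 SE, adjusted p = 0.106).

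The IFIT genes, neighbours on chromosome 10 between 91043451 and 91181362 (GRCh37), all rose in number 1, and all 4 had their samples numbered 1 above the other 6. IFIT1 was at 2.86, 3.78 and 5.79 CPM in the samples numbered 1, 1.23, 1.47 and 2.19 in those numbered 13 and 1.57, 1.42 and 1.2 in those numbered 25, a log2 fold change of 1.41 ± 0.20 (SE, adjusted p = 0.00067). IFIT2 was at 4.21, 5.99 and 14.8 CPM in the samples numbered 1, 2.18, 2.73 and 2.04 in those numbered 13 and 1.83, 2.08 and 2.37 in those numbered 25, with 1.79 ± 0.26 (SE, adjusted p = 0.000783). In both, the SH3 sample was the highest of the 3 numbered 1. Without it IFIT1 was 1.21 (adjusted p = 0.000903) and IFIT2 1.20 (adjusted p = 0.000119). IFIT3, the partner that stabilises IFIT1, was at 8.25, 9.38 and 14.5 CPM in the samples numbered 1, 4.25, 7.43 and 6.11 in those numbered 13 and 3.6, 4.89 and 4.48 in those numbered 25. It rose by 1.07 ± 0.14 (SE, adjusted p = 0.000531). IFIT5 was at 17.3, 14.8 and 22.5 CPM in the samples numbered 1, 14.6, 9.06 and 10.7 in those numbered 13 and 13.1, 10.9 and 13.1 in those numbered 25. It rose by 0.61 ± 0.12 (SE, adjusted p = 0.00247). These paralogs share sequence, so part of their reads may be counted to the wrong member.

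In the ISG15 system 1 of 5 members rose, against 24.1% of all genes tested called higher in number 1. TRIM25, the ligase that acts on RIG-I, was at 122, 111 and 125 CPM in the samples numbered 1, 102, 91.9 and 97.2 in those numbered 13 and 102, 89.6 and 105 in those numbered 25, a rise of 0.28 ± 0.05 (SE, adjusted p = 0.00241). ISG15 itself was -0.03 ± 0.18 (SE, adjusted p = 0.909), HERC5 -0.05 ± 0.09 (SE, adjusted p = 0.697), HERC6 0.11 ± 0.09 (SE, adjusted p = 0.332) and USP18 0.24 ± 0.26 (SE, adjusted p = 0.464). ISG15 and HERC5 hold the response element core in the promoters printed above, as do IFIT1, IFIT3 and IFIH1, which rose. Whether ISG15 differed from those members in its response was not tested.

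Of the 5 membrane proteins, 4 rose in number 1. IFITM1 was at 119.7, 132 and 155 CPM in the samples numbered 1, 117, 85.2 and 111 in those numbered 13 and 85.4, 82.9 and 93.4 in those numbered 25, with 0.51 ± 0.09 (SE, adjusted p = 0.00146). IFITM2 was at 63.7, 71.7 and 86.7 CPM in the samples numbered 1, 57.7, 43.3 and 54.7 in those numbered 13 and 45.9, 44.6 and 54.8 in those numbered 25. It rose by 0.56 ± 0.09 (SE, adjusted p = 0.00098). IFITM3 was at 10.2, 8.27 and 13.1 CPM in the samples numbered 1, 7.89, 5.95 and 7.69 in those numbered 13 and 6.1, 5.93 and 7.72 in those numbered 25. It rose by 0.61 ± 0.10 (SE, adjusted p = 0.00154). All 3 IFITM genes were without overlap between number 1 and the rest. BST2 (tetherin), which holds budding virions to the cell surface, was at 7.56, 5.12 and 15.5 CPM in the samples numbered 1, 5.99, 3.32 and 3.03 in those numbered 13 and 5.77, 5.34 and 4.33 in those numbered 25. It rose by 0.97 ± 0.29 (SE, adjusted p = 0.0194), and by 0.32 (adjusted p = 0.111) without the SH3 sample, which was at least 2 times every other. PLSCR1 did not pass the test (-0.13 ± 0.06 SE, adjusted p = 0.0948).

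MX1 and MX2, dynamin-like GTPases that trap viral nucleocapsids, rose from low levels. MX1 was at 0.935, 0.636 and 1.46 CPM in the samples numbered 1, 0.476, 0.439 and 0.525 in those numbered 13 and 0.30, 0.52 and 0.51 in those numbered 25, from 9 to 43 counts, a rise of 1.11 ± 0.26 (SE, adjusted p = 0.0066). MX2 was at 0.605, 0.971 and 0.681 CPM in the samples numbered 1, 0.51, 0.407 and 0.463 in those numbered 13 and 0.40, 0.277 and 0.546 in those numbered 25, from 8 to 29 counts, a rise of 0.79 ± 0.28 (SE, adjusted p = 0.0403). In both, the samples numbered 1 were above the other 6. Without the SH3 sample numbered 1, MX1 was 0.87 (adjusted p = 0.0501). ISG20, an RNA exonuclease, was at 1.46, 1.57 and 3.71 CPM in the samples numbered 1, 1.4, 0.345 and 0.247 in those numbered 13 and 0.367, 0.762 and 0.546 in those numbered 25, with 8 to 109 counts. It rose by 1.85 ± 0.47 (SE, adjusted p = 0.00955), the widest error among the members, and by 1.10 (adjusted p = 0.0504) without the SH3 sample.

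RSAD2 (viperin), a radical enzyme that makes a chain-terminating nucleotide, and CMPK2, the kinase beside it that feeds the same reaction, had opposite signs in number 1. RSAD2 was at 39.1, 30.3 and 37.5 CPM in the samples numbered 1, 43.2, 39.9 and 32.7 in those numbered 13 and 25, 21.2 and 18.6 in those numbered 25. Number 1 overlapped number 13 and exceeded number 25, with means of 35.6 ± 4.7 CPM (SD, n = 3) in number 1, 38.6 ± 5.37 in number 13 and 21.6 ± 3.22 in number 25. Against numbers 13 and 25 together it was 0.31 ± 0.09 (SE, adjusted p = 0.0182), and 0.16 (adjusted p = 0.107) without the SH3 sample numbered 1. CMPK2 was at 59.4, 62.9 and 40.4 CPM in the samples numbered 1, 102, 112 and 101 in those numbered 13 and 76.8, 73.3 and 59.8 in those numbered 25. All samples numbered 13 were above the other 6, and against numbers 13 and 25 together number 1 fell by 0.68 on the log2 scale (adjusted p = 0.00049). Their annotated spans overlap on opposite strands of chromosome 2 (RSAD2 7005688 to 7038370, CMPK2 6980701 to 7006766, GRCh37), and the study's methods, written for its mouse cells, describe unstranded libraries. Without strand, reads in the overlap cannot be told apart.

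Of the 11 other induced proteins tested, 9 rose. LGALS3BP, a secreted glycoprotein, was at 21.9, 20.2 and 33.2 CPM in the samples numbered 1, 10, 9.21 and 9.63 in those numbered 13 and 8.77, 12.1 and 16.6 in those numbered 25, with 1.18 ± 0.13 (SE, adjusted p = 0.00028). The mitochondrial protein IFI6 was at 18.9, 16.5 and 26.4 CPM in the samples numbered 1, 13.8, 9.15 and 10.4 in those numbered 13 and 11.7, 8.94 and 10.1 in those numbered 25, with 0.94 ± 0.12 (SE, adjusted p = 0.000519). PARP14, in the same order, was at 39.4, 26.7 and 41.1 CPM in the samples numbered 1, 26.5, 17.3 and 18.2 in those numbered 13 and 20.4, 15.5 and 18.8 in those numbered 25, with 0.88 ± 0.09 (SE, adjusted p = 0.000243). In all 3 the samples numbered 1 were above the other 6. TRIM22, a restriction factor of the tripartite motif family, was at 22.2, 23.3 and 25.8 CPM in the samples numbered 1, 18.8, 15.9 and 16.3 in those numbered 13 and 13.4, 11.5 and 13 in those numbered 25. It rose by 0.70 ± 0.08 (SE, adjusted p = 0.000336). The neighbouring paralogs SAMD9 and SAMD9L, which limit poxvirus replication, rose alike in direction, with no overlap between number 1 and the rest. SAMD9 was at 40.6, 34.7 and 42 CPM in the samples numbered 1, 28.5, 27.9 and 25.6 in those numbered 13 and 23.3, 21.7 and 27.2 in those numbered 25. It rose by 0.61 ± 0.08 (SE, adjusted p = 0.000514). SAMD9L was at 23.8, 19.1 and 31.6 CPM in the samples numbered 1, 13.5, 15.7 and 15.7 in those numbered 13 and 16.9, 14.4 and 17.8 in those numbered 25. It rose by 0.65 ± 0.11 (SE, adjusted p = 0.00136). IFI44 was at 3.08, 2.91 and 3.17 CPM in the samples numbered 1, 2.18, 1.57 and 1.79 in those numbered 13 and 1.73, 1.66 and 1.71 in those numbered 25. It rose by 0.79 ± 0.14 (SE, adjusted p = 0.00212). The smallest rises were those of XAF1, a partner of an apoptosis inhibitor (0.22 ± 0.08 SE, adjusted p = 0.0482), and the nuclear body protein SP100 (0.20 ± 0.06 SE, adjusted p = 0.0247). XAF1 was at 17.9, 15 and 17.8 CPM in the samples numbered 1, 15.3, 15.4 and 17.3 in those numbered 13 and 13.9, 12.8 and 12.6 in those numbered 25, and number 1 overlapped number 13. SP100 was at 29, 27.2 and 33.5 CPM in the samples numbered 1, 26, 24.8 and 26.6 in those numbered 13 and 26.7, 24.3 and 27 in those numbered 25, where number 1 just cleared the others. Without the SH3 sample numbered 1 they were 0.20 (adjusted p = 0.12) and 0.14 (adjusted p = 0.116). IFI35 (0.32 ± 0.13 SE, adjusted p = 0.0686) and PARP9 (0.17 ± 0.09 SE, adjusted p = 0.156) did not pass.

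**Figure D3:**
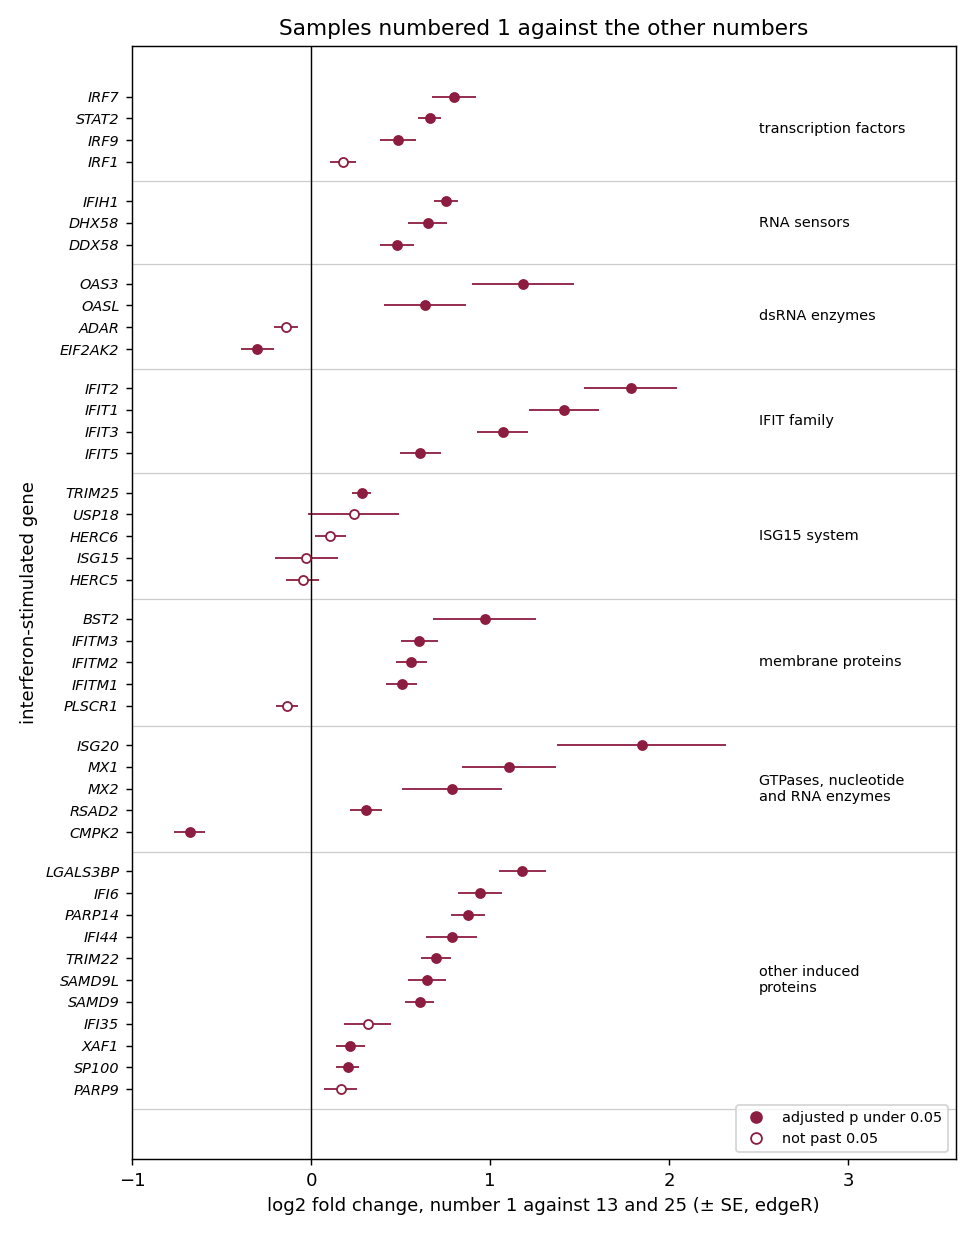
Log2 fold change of number 1 against numbers 13 and 25 for each tested member, with its standard error from the edgeR fit, grouped by role. Filled points passed an adjusted p of 0.05. The IFIT family lies between 0.61 and 1.79, the ISG15 system between -0.05 and 0.28, and CMPK2 is lowest at -0.68.

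The difference between the numbers was present within each group. Number 1 was the highest of the 3 samples for 32 of 41 members in EV, 29 in SH2 and 33 in SH3, against 37.4%, 38.8% and 43.1% of all genes tested. The median of number 1 minus the mean of the other 2 samples was 0.36 in EV, 0.47 in SH2 and 0.73 in SH3 on the log2 scale, while over all genes it was between 0.00 and 0.01 in size. With 1 group left out, 28 members were called without EV, 26 without SH2 and 28 without SH3. Over all genes tested the calls were 4472 of 13940, 4587 of 14005 and 5069 of 13989 in the same order. A fit with a term for number 1 in each group, chosen after seeing the data, tested whether the groups differed in it. It called 0 of 41 members and 0% of all genes tested for SH2 minus EV, SH3 minus EV and SH3 minus SH2, with 0, 4 and 2 members at an unadjusted p below 0.05, against 1.16%, 7.89% and 8.7% of all genes. No other tool was run on it. For SH3 minus EV the smallest p was that of IFIT2, where number 1 exceeded the others by 2.72 in SH3 and by 1.05 in EV, a difference of 1.69 ± 0.37 (SE, edgeR adjusted p = 0.513). For BST2 these values were 2.07 and 0.36, a difference of 1.71 ± 0.44 (SE, adjusted p = 0.573).

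Numbers 13 and 25 differed less. Of 41 members 5 were called, all lower in number 25, while 2.77% of all genes tested were called higher and 3.1% lower. RSAD2 fell most, by 0.84 on the log2 scale (adjusted p = 0.00363), followed by CMPK2 at -0.60 ± 0.10 (SE, adjusted p = 0.00923) and IRF1 at -0.58 ± 0.09 (SE, adjusted p = 0.0063). IRF1 was at 25.8, 26.2 and 27.2 CPM in the samples numbered 1, 24.3, 30.6 and 31.1 in those numbered 13 and 17.9, 18.5 and 20.9 in those numbered 25, so every sample numbered 25 was below the other 6. TRIM22 (-0.43 ± 0.10 SE, adjusted p = 0.0341) and HERC6 (-0.42 ± 0.10 SE, adjusted p = 0.0407) were the other two. HERC6 was at 9.49, 8.91 and 8.89 CPM in the samples numbered 1, 9.76, 10.1 and 9.45 in those numbered 13 and 7.3, 7.17 and 7.46 in those numbered 25, and each group showed the same order. In 9 members all samples numbered 13 were above all numbered 25, against 15.7% of all genes tested. The members' median was -0.13. The 5 calls depended on the samples used, as did those over all genes tested, given in brackets. Without the SH3 sample numbered 1 there were 8 (2750 of 14291 genes) and without EV numbered 13 there were 3 (252 of 14356). Without EV numbered 25, SH2 numbered 13, SH2 numbered 25 or SH3 numbered 25 there was 1 (50 of 14351, 89 of 14342, 88 of 14367 and 93 of 14370). With 6 samples there were 0 without the EV group (45 of 13940 genes), 0 without SH2 (7 of 14005) and 6 without SH3 (2054 of 13989).

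**Figure D4:**
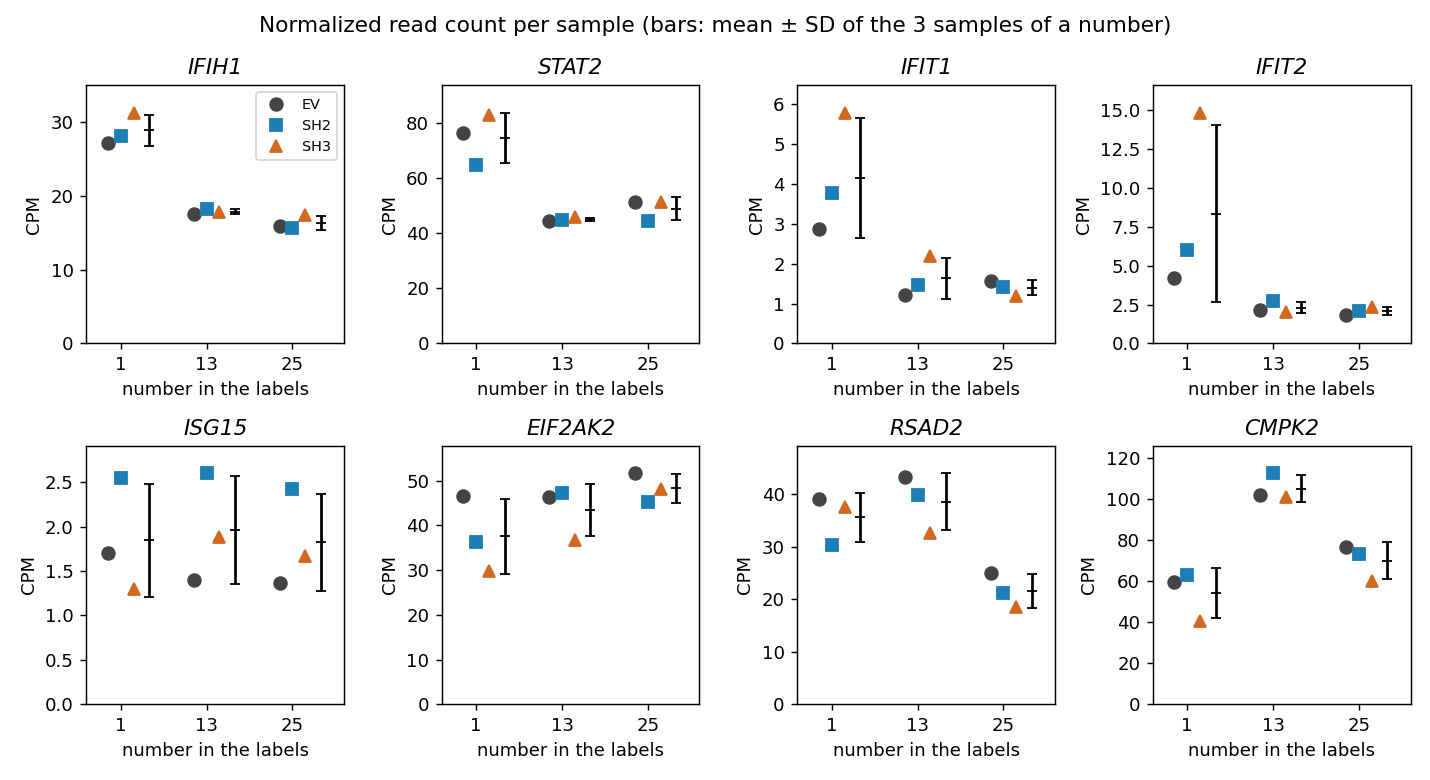
CPM in each sample for 8 members, by number and group, with the mean ± SD of the 3 samples of each number as bars. IFIH1, STAT2, IFIT1 and IFIT2 are highest in number 1, ISG15 is highest in SH2 at each number, EIF2AK2 is lowest in SH3 at numbers 1 and 13, and RSAD2 and CMPK2 fall from number 13 to number 25.

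The rest of the pathway was read from lists chosen by role. Over all genes tested, 24.1% were called higher and 22.2% lower in number 1. The 21 interferon ligand genes had at most 4 counts in any sample, so no ligand transcript was detectable above the level of a few counts. Of 6 receptor genes, 5 passed the filter and IFNLR1, the subunit specific to lambda interferons, had 0 counts, which allows at most 3 counts in a sample. IFNAR1 was at 62.2, 65 and 75.8 CPM in the samples numbered 1, 55.6, 56.4 and 57.6 in those numbered 13 and 54.1, 55 and 57.9 in those numbered 25. It rose in number 1 by 0.27 ± 0.06 (SE, adjusted p = 0.00478). The shared subunit IL10RB (0.29 ± 0.07 SE, adjusted p = 0.0102) and the interferon gamma subunit IFNGR2 (0.22 ± 0.07 SE, adjusted p = 0.0263) also rose, while IFNAR2 (0.14 ± 0.07 SE, adjusted p = 0.122) and IFNGR1 (0.09 ± 0.05 SE, adjusted p = 0.182) did not pass.

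Among 21 genes of signalling from sensors and receptors, 8 rose and 4 fell in number 1, against 24.1% called higher and 22.2% called lower over all genes tested. STING (TMEM173), the adaptor for cytosolic DNA, was at 142, 151 and 175 CPM in the samples numbered 1, 114, 96.4 and 98.5 in those numbered 13 and 78.2, 82.2 and 93.9 in those numbered 25. It rose by 0.73 ± 0.08 (SE, adjusted p = 0.000243). The DNA receptor TLR9 rose by 1.06 ± 0.24 (SE, adjusted p = 0.00561) and the RNA sensor adaptor MAVS by 0.34 ± 0.08 (SE, adjusted p = 0.00574). The list did not move together. TBK1 had means of 58.1, 63.8 and 68.1 CPM in the samples numbered 1, 13 and 25, and MB21D1 41, 44.7 and 51.5, both lowest in number 1. Of 35 further interferon-stimulated genes tested, 19 rose and 2 fell (PNPT1 -0.55 and ZNFX1 -0.19), with a median of 0.37, against the same shares over all genes. The guanylate binding protein GBP4 rose by 1.56 ± 0.20 (SE, adjusted p = 0.000489), the DNA sensor IFI16 by 0.75 ± 0.08 (SE, adjusted p = 0.000187), the retroviral restriction factor TRIM5 by 0.80 ± 0.08 (SE, adjusted p = 0.000209) and UBA7, the activating enzyme for ISG15, by 0.88 ± 0.11 (SE, adjusted p = 0.000488). Of 10 genes of small RNA processing, through which an shRNA acts, 1 rose (AGO4 0.38) and 6 fell, from -0.45 (AGO2) to -0.24 (PRKRA), again against these shares.

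Between numbers 25 and 13, SOCS3, the feedback inhibitor of cytokine receptors, rose in number 25 by 1.52 ± 0.18 (SE, adjusted p = 0.00326) and IRF3 by 0.38 ± 0.07 (SE, adjusted p = 0.017). DDX60 (-0.91), IFI16 (-0.47) and ZNFX1 (-0.35) fell. In the comparisons of groups 0 pathway genes were called without the block. With the block JAK1, the kinase of all interferon receptors, was lower in SH3 (-0.38 ± 0.07 SE, adjusted p = 0.0409) and in both shRNAs averaged (-0.33 ± 0.06 SE, adjusted p = 0.0379). It was at 156, 148 and 134 CPM in EV, 124, 123 and 116 in SH2 and 117, 108 and 111 in SH3, with all knockdown samples below all EV samples. AGO2, the slicing Argonaute protein, was lower with the block for both averaged (-0.62 ± 0.11 SE, adjusted p = 0.0379), as was ZNFX1 (-0.36 ± 0.06 SE, adjusted p = 0.0403). Without the block the adjusted p of JAK1, AGO2 and ZNFX1 for both averaged were 0.623, 0.727 and 0.728.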

How the data were processed

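Per the labels, RNA from 9 SKNO-1 samples was made into TruSeq libraries. The extraction text of the labels describes sorted bone marrow, which differs from the cell line named there, and the study's methods, written for mouse cells, describe unstranded poly(A) libraries. The deposited values are whole-number counts per RefSeq transcript, not normalized. The submitters' processing notes name STAR, featureCounts, DESeq2 and hg19 with no role or order, and the study names Cuffdiff. Per gene symbol the transcript with the highest total was kept. Counts were tested with edgeR 4.0.16 (R 4.3.3) by the quasi-likelihood F test, after filterByExpr (minimum count 10, minimum total 15) and TMM scaling, with Benjamini-Hochberg adjustment over 14199 genes and a threshold of 0.05. Groups were fitted with 1 coefficient each, numbers with group as a second term. SE is the log2 fold change divided by the square root of F. CPM are counts scaled to the effective library size.

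The members and lists were chosen with earlier results of these data known. Statistics are given for members past the threshold with or without the block, or else for those with the smallest p, and values for these and for a set of standard readouts of interferon; other pathway genes are named by smallest p, with ligands and receptors, and 1 of them is not reported here. The numbers pair the samples by the rule that every correlation of same-numbered deviations is over 0.1. The labels do not say that samples are separate cultures, although the study calls them biological replicates, so p-values measure the spread between these samples. Within groups no pair agreed within sampling noise (chi-square per degree of freedom 17.6 to 128). The code was tested on simulated counts. Alternatives were other size factors (RLE), DESeq2 1.42.0, no filter, summed transcripts, a transcript length correction, the block and omitted samples. Gene positions are those of GENCODE on GRCh37, and promoters those of RefSeq on GRCh38.p14.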

Additional observations from a re-analysis of the deposited data

Results flagged for a closer look

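Among the 41 members, the 6 samples numbered 13 and 25 were searched for a lone low or high value of log2 CPM. MX1 in the EV sample numbered 25 was the only value past Dixon's 95% critical value for 6 samples: its gap to the nearest sample was 0.671 of the whole range. It was at 0.30 CPM, from 9 counts, and the other 5 samples were at 0.439 to 0.525 CPM. Chance passes this value in about 1 of 20 groups, and 41 were searched. No difference between the groups in the effect of number 1 passed the test.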

How the results depend on the processing

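Of 104 values of the counts of members called under the alternatives, 93 were within 1.5 times of the count reported. Most of these were 0 against 0 in the comparisons of groups, where edgeR called at most 1.1% of all genes. The 11 others were for DESeq2 with the block between groups and for number 25 against number 13. The replicate block left 0 members called in each of the 4 comparisons of groups, as did the block with the transcript length correction. DESeq2 with the replicate block gave 1 in SH2 against EV and 1 in both shRNAs averaged, in each case PARP14. Leaving out each sample in turn gave 0 in all comparisons of groups, 25 to 32 for number 1 against numbers 13 and 25 (25 without the SH3 sample numbered 1) and 1 to 8 for number 25 against number 13. Over all genes tested, these omissions called at most 2 between groups, 4813 to 6282 for number 1 and 50 to 2750 for number 25 against number 13. The members called for number 25 against number 13 also fell to 2 with no group term (304 of 14199 genes tested), to 0 without the EV group and to 0 without the SH2 group. With the paired splits, that is the 27 in which the control set holds every number, ASXL2 had an exact permutation p of 0.037, the smallest they allow. Over all genes tested, the block raised the calls from 0 to 40 in SH2, 59 in SH3, 156 in both averaged and 15 between the shRNAs. With the length correction as well these were 6, 28, 23 and 10, and with DESeq2 and the block 374, 474, 622 and 152. Leaving out the SH3 sample numbered 1 turned the direction of CMPK2, IFIT2, IFIT3 and LGALS3BP in SH3 against EV, whose log2 fold changes over all omitted samples ran from -0.66 to 0.016, -0.33 to 1.68, -0.030 to 1.09 and -0.061 to 1.08, and of PARP14 in SH3 against SH2 (-0.10 to 0.67). Over all 41 members, 25 changed sign in SH3 against EV without that sample. These fits had no block, and the omission kept number 1 in the group compared with SH3. Against EV of the same number, SH3 at 13 and 25 was -0.01 and -0.36 for CMPK2 and -0.09 and 0.36 for IFIT2. It was 0.52 and 0.31 for IFIT3 and -0.05 and 0.92 for LGALS3BP. PARP14 was higher in SH3 than in SH2 at number 13 (18.2 and 17.3 CPM) and at number 25 (18.8 and 15.5). What the library itself contributed was not tested. Depth limits OAS1, OAS2, IFI27 and IFI44L, which entered a test with no filter on low counts alone, where OAS1 and OAS2 passed for number 1 (adjusted p = 0.0162 and 0.0494), and members with few counts, such as MX1, MX2, USP18 and OAS3, whose standard errors were among the wider.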
